A study of Mus musculus with 15 samples.

Results

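The genes that separate CD103+ from CD11b+ dendritic cells (DCs) in the lymph nodes (LNs) that drain the murine lung are described here. They come from the gene counts of 6 libraries, 3 of LN CD103+ DCs and 3 of LN CD11b+ DCs, out of 15 libraries in the series. Every gene with a CPM above 1, where CPM is a gene's counts scaled to the library's total, in at least 3 of the 6 libraries was a member, which gave 13208 of 38924 gene identifiers. Of the 25716 identifiers below that level, 17463 had no count in any of the 6 libraries. The gene just inside the limit was Rpl18-ps1, with a third-highest value of 1.033 CPM, and the gene just outside it was Raph1, at 0.9896 CPM.

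The series profiled mononuclear phagocytes, the family of monocytes, macrophages and DCs, by RNA-seq of sorted cells. Its other 9 libraries are splenic CD8+ DCs, splenic CD4+ DCs and splenic Ly6c+ monocytes, with 3 libraries each. All groups came from untreated female C57BL/6 mice of 6 to 8 weeks with no modified allele, and each library pooled the cells of 5 animals. LN cells were freed with collagenase D, enriched on CD11c beads and sorted for CD11c and high MHC class II with either CD103 or CD11b, a gate meant for DCs that have migrated from the lung. Cells that stained for T cell, B cell, NK cell or neutrophil markers, or for the macrophage receptor CD64, were to be left out of the sort. The comparison asks which transcripts differ between the 2 lineages once both have reached lung-draining LNs.

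DCs take up antigen in a tissue, carry it through lymph and show it to T cells in the node. The CD103+ cells belong to the DC1 lineage, which depends on the transcription factors IRF8 and BATF3, takes up dying cells and is known for presenting their antigens on MHC class I to CD8 T cells. The CD11b+ cells belong to the DC2 lineage, which depends on IRF4, carries many activating and inhibitory surface receptors and is known for presenting antigen on MHC class II to CD4 T cells. Monocyte-derived cells can share CD11b, CD11c and MHC class II with DC2.

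Between 4531243 and 9683795 counts fell on genes in each of the 6 libraries, which detected 16897 to 17693 genes, with 0.964% to 1.33% of counts from mitochondrial genes. Of the uniquely mapped reads, 24.7% to 30.7% lay in no exon, and replicate 3 of each group had the highest share. In the values given below, the 3 numbers of a group are replicates 1, 2 and 3 in that order, in CPM scaled by trimmed means (TMM). A log2 fold change is the fitted CD103+ minus CD11b+ value, with a standard error derived from its test statistic. Folds other than floors are ratios of mean CPM and can differ somewhat from the fitted value. Because each value is a share of the RNA of a pool, fewer cells of a type and less RNA per cell cannot be told apart. Nothing in the labels says how the pools were made apart from their numbers. The p values come from a fit of all 15 libraries. They measure the spread between pools within the 5 subtypes, splenic ones included, and not that of the LN pools alone.

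The labels were first checked against the genes of the sort. Itgae, the gene of CD103, stood at 39.2, 20.5 and 20.8 CPM in the CD103+ libraries and 1.49, 5.65 and 5.53 CPM in the CD11b+ libraries, 6.35-fold higher in CD103+ (log2 fold change 2.73 ± 0.50, adjusted p = 0.000977). Itgam, the gene of CD11b, stood at 3.59, 2.99 and 0.981 CPM against 122, 88.7 and 118 CPM, 43.4-fold higher in CD11b+ (log2 fold change -5.39 ± 0.43, adjusted p = 1.38e-07). The groups did not overlap for either gene. Itgax, the gene of CD11c, was present in all 6 libraries, at 116, 85.9 and 97.6 CPM in CD103+ and 332, 304 and 232 CPM in CD11b+ cells, and was 2.89-fold higher in CD11b+ (adjusted p = 1.39e-05). Among the genes behind the markers sorted out, Ly6g had no count in any of the 6 libraries. Klrb1c, the gene of NK1.1, lay at 1.52, 0.230 and 0.981 CPM in CD103+ and 1.39, 1.01 and 6.85 CPM in CD11b+ libraries. Cd3e, a chain of the T cell receptor complex, lay at 2.62, 8.97 and 10.9 CPM and 4.27, 2.03 and 3.54 CPM. Fcgr1, the gene of CD64, lay at 0, 0.460 and 1.31 CPM in CD103+ and 21.4, 16.5 and 9.28 CPM in CD11b+ libraries, a log2 fold change of -4.82 ± 0.55 (adjusted p = 7.82e-06). The CD64 transcript was thus present in all 3 CD11b+ libraries although the gate was to leave out cells with the protein.

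CD103+ replicate 1 stood apart by its B cell transcripts. Its B cell markers, 19 found of 20 listed and 18 of them tested, summed to 883 CPM. The sums were 217 and 324 CPM in the other CD103+ libraries and 270.2 to 503 CPM in the CD11b+ libraries. Each of the 18 tested markers was highest in replicate 1 among the CD103+ libraries. Cd79a, a chain of the B cell receptor, lay at 49.8, 1.03 and 3.595 CPM in CD103+ and 11.1, 1.88 and 13.3 CPM in CD11b+ libraries. The other 5 libraries thus held some B cell transcripts too, CD11b+ replicates 1 and 3 among them. In edgeR's quasi-likelihood test, with Benjamini-Hochberg adjustment over all genes, 0 of the 18 passed an adjusted p of 0.05 with all libraries (1 at an unadjusted p under 0.05, 0 in DESeq2), and 4 passed, higher in CD11b+, without CD103+ replicate 1. The same library was the highest of its group for 12 of 14 genes of MHC class II presentation and 14 of 20 genes of the DC1 signature, against 36.9% of all genes tested. The counts and medians of both lists are therefore given with and without it, as are the genes it moved most, and its part in them was otherwise not tested.

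Markers of monocytes and macrophages were also unequal. Of 18 listed, 16 were tested and 15 were higher in CD11b+ cells. The 18 summed to 187 to 382 CPM in the CD103+ libraries and 2698 to 3983 CPM in the CD11b+ libraries. Sums given for other cell types likewise hold any listed markers below the filter. Mertk, a receptor that macrophages use to engulf dying cells, stood at 0.966, 0.575 and 0.654 CPM against 24.1, 31.1 and 12.2 CPM, with a log2 fold change of -4.92 ± 0.47 (adjusted p = 1.04e-06). Vsig4, a marker of tissue macrophages, had no count in the 6 libraries, and Cd163, another, stayed below 3 CPM in each. Lyz2, Csf1r and Cx3cr1 are in this list and also in the list of DC2 genes below. The sorted CD11b+ cells could hold cells of more than 1 kind, and the part of these markers in the receptor, complement and lipid results below was not tested. The summed markers of T cells, NK cells and plasmacytoid DCs overlapped between the groups, at 237 to 339.7, 51.6 to 71.8 and 106 to 195 CPM over all 6 libraries. Of 14 tested T cell markers 0 passed (1 at an unadjusted p under 0.05, 0 in DESeq2, 1 in the fit of the 6 LN libraries alone) and of 5 tested NK cell markers 0 passed (1 at an unadjusted p under 0.05, 1 in DESeq2), while 1 of 7 tested plasmacytoid DC markers was higher in each group, the one in CD103+ (Pacsin1) with a call lost whichever of the 6 libraries was left out (adjusted p up to 0.13). Ncr1, a defining NK gene, was below the filter at 0, 0.115 and 0.654 CPM and 0.213, 1.16 and 5.53 CPM. Siglech, which defines plasmacytoid DCs, did not pass, at 2.07, 1.03 and 4.41 CPM and 2.13, 2.897 and 11.7 CPM. Of 12 neutrophil genes only Csf3r, the G-CSF receptor, was tested, at 1.24, 0 and 0.817 CPM against 24.3, 29.4 and 12.6 CPM, while S100a8 had 2 counts in all. Of 5 tested globin and other red cell genes 3 were higher in CD11b+ (1 without CD103+ replicate 1 or 3 or CD11b+ replicate 2 or 3), and they summed to 1.798 to 10.7 CPM in CD103+ and 11.6 to 57.8 CPM in CD11b+ libraries. Of 8 tested plasma cell markers 1 was higher in CD11b+ (2 without CD103+ replicate 3 or CD11b+ replicate 2, with the block and in the 6 LN libraries alone), and of 7 tested stromal and endothelial markers 2 were (1 without CD103+ replicate 1 or 2 or CD11b+ replicate 2). The plasma cell markers summed to 134 to 184 CPM against 213 to 323 CPM, and the stromal and endothelial markers to 73.05 to 97.05 CPM against 114 to 157 CPM.

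Of the 13208 genes, 1840 (13.9%) passed an adjusted p of 0.05, 749 (5.67%) higher in CD103+ and 1091 (8.26%) higher in CD11b+ cells. The median absolute log2 fold change of the called genes was 1.15 for genes higher in CD103+ and 1.62 for genes higher in CD11b+, and 79 of the first and 248 of the second differed at least 8-fold. The groups did not overlap for 1806 of the 1840 called genes and for 4355 (33.0%) of all genes tested. With each of the 6 libraries left out in turn, 994 of the 1840 genes passed every time, 380 higher in CD103+ and 614 higher in CD11b+. Without CD103+ replicate 1, 1401 of them passed in the same direction.

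Outside the lists of sort, signature and lineage transcription factor genes, which are described with their groups, the genes with the largest changes toward CD103+ were mostly not immune receptors. Dkk3, which codes for a secreted protein of the Dickkopf family, stood at 91.9, 152 and 134 CPM in CD103+ and 0.213, 0.290 and 1.55 CPM in CD11b+ cells, with a log2 fold change of 7.79 ± 0.53 (adjusted p = 9.88e-08). Cnga2, a cyclic-nucleotide-gated channel known from olfactory neurons, lay at 14.6, 32.8 and 21.7 CPM against 0.533, 0 and 0.221 CPM (log2 fold change 6.28 ± 0.71). Pcdh7, a protocadherin, lay at 13.9, 19.9 and 24.4 CPM against 0.853, 0 and 0.221 CPM (log2 fold change 5.51 ± 0.75). The rule that named genes by size took only those with no overlap between the groups and a mean of 10 CPM or more in the higher group. The other 7 of the 10 named by size were Itgb2l (4.86), an integrin beta chain, Cacng6 (4.61), a calcium channel subunit, Fgfbp3 (4.59), which binds fibroblast growth factors, Myo6 (4.23), a myosin that moves toward the minus ends of actin filaments, Mpzl2 (4.14), an adhesion molecule, Naalad2 (4.07), a peptidase, and Cystm1 (3.96), with the log2 fold change of each in brackets.

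Of the 10 genes named by size on the CD11b+ side, outside those same lists, 7 belong to the Clec4 and Sirpb1 families of surface receptors, whose members lie side by side in the genome. Clec4b1, a C-type lectin, had no count in the 3 CD103+ libraries and 13.7, 17.5 and 14.2 CPM in the CD11b+ libraries, at least 111-fold higher with a floor of 3 counts over the group. Sirpb1c, a receptor of the signal-regulatory family, had 1 count in the CD103+ libraries and 53.7, 49.8 and 29.6 CPM in the CD11b+ libraries, a ratio of 979 (95% Poisson interval 176 to 38670). Cd93, a surface glycoprotein of myeloid and endothelial cells, had 2 counts against 53.1, 35.4 and 15.9 CPM, a ratio of 384 (95% Poisson interval 106 to 3170). The Sirpb1 genes are near-identical copies of each other, and so in part are the Clec4a genes, so a read could be placed on the wrong copy or dropped, and the level of a single copy is uncertain. The other genes named by size that had 3 or fewer counts in CD103+ were Sirpb1b (2 counts, ratio 406, interval 112 to 3348), Clec4e (2 counts, ratio 120.0, interval 33.2 to 990.5), Gm9733 (3 counts, ratio 134, interval 45.7 to 648) and the noncoding Mir99ahg (2 counts, ratio 193, interval 53.4 to 1592), each with the ratio of CD11b+ to CD103+ and its Poisson interval. The remaining ones, Sirpb1a, Clec4a1 and Clec4a3, had fitted log2 fold changes of -7.67, -7.88 and -7.20.

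The DC1 and DC2 signature genes that passed all lay in the direction of the labels. The lists were chosen with earlier results of these data known, so their counts are not an independent check of the labels. Of 20 DC1 signature genes, 10 were higher in CD103+ and none in CD11b+ cells, with a median log2 fold change of 1.04 (0.69 without CD103+ replicate 1), beside a median of -0.00 and 5.67% higher in CD103+ over all genes tested. Without CD103+ replicate 1, 9 were higher. Xcr1, the receptor through which DC1 sense the chemokine of activated CD8 T cells, stood at 95.7, 33.5 and 34.1 CPM against 3.2, 2.61 and 7.74 CPM, 12.1-fold higher in CD103+ (log2 fold change 3.67 ± 0.51, adjusted p = 6.35e-05), and without CD103+ replicate 1, its highest library, the log2 fold change was 2.99. Clec9a, a lectin that binds actin exposed on dead cells, stood at 39.2, 29.8 and 33.2 CPM against 3.41, 1.59 and 4.199 CPM (log2 fold change 3.49 ± 0.27, adjusted p = 1.06e-07), with 5.6% of its exon length shared with another gene. Cadm1, an adhesion molecule, stood at 99.03, 95.1 and 96.2 CPM against 16.0, 16.4 and 16.8 CPM, so the libraries of each group lay close together. Gcsam, a signalling adaptor known from germinal centers, lay at 72.0, 54.05 and 62.1 CPM against 1.49, 0 and 4.42 CPM (log2 fold change 5.17 ± 0.57). Cd207, the gene of langerin, was lower in level, at 2.48, 3.91 and 4.09 CPM against 0, 0.290 and 0 CPM, with 2 counts in the CD11b+ libraries and a ratio of 36.3 (95% Poisson interval 10.1 to 300.0). Ly75, the gene of the uptake receptor DEC-205, stood at 742, 868 and 727 CPM against 278, 318 and 263 CPM, with no overlap but a sizeable level in CD11b+ cells. Cd36, a scavenger receptor, was 3.97-fold higher in CD103+ (adjusted p = 0.000219) and Ifi205 2.23-fold higher (adjusted p = 0.00174).

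The other 10 genes of that list did not pass. Naaa, a lysosomal amidase, lay at 147, 23.1 and 40.4 CPM in CD103+ and 40.6, 21.4 and 49.7 CPM in CD11b+ libraries. Tlr3, the sensor of double-stranded RNA, lay at 14.8, 3.79 and 4.74 CPM and 6.72, 1.88 and 5.08 CPM. Rab7b, a GTPase of late endosomes, lay at 99.9, 31.6 and 26.3 CPM and 28.7, 30.4 and 38.02 CPM. In each of these genes CD103+ replicate 1 was the highest of the 6 libraries and the groups overlapped, and without it the log2 fold change turned from 0.92 to -0.23 for Naaa, from 0.74 to -0.13 for Tlr3 and from 0.71 to -0.15 for Rab7b. Ppt1, a lysosomal thioesterase, passed with all libraries (298, 103 and 142 CPM against 82.5, 65.04 and 90.8 CPM, log2 fold change 1.19 ± 0.31, adjusted p = 0.0149), but the call was lost without CD103+ replicate 1 or CD11b+ replicate 2 (adjusted p up to 0.15), and the log2 fold change without CD103+ replicate 1 was 0.63. Hepacam2 (2.13) passed, and its call was lost without CD11b+ replicate 1 (adjusted p up to 0.0556). Wdfy4, needed for cross-presentation, overlapped too, at 166, 79.5 and 106 CPM against 98.5, 68.8 and 93.3 CPM. Tlr11 and Tlr12, sensors of a protozoan profilin, had log2 fold changes of 0.14 ± 0.32 and -0.04 ± 0.41.

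Of 20 DC2 signature genes, 13 were higher in CD11b+ and none in CD103+ cells, with a median log2 fold change of -4.08. Sirpa, which binds CD47 and restrains phagocytosis, stood at 12.4, 12.99 and 11.3 CPM against 624, 606 and 596 CPM, 49.8-fold higher in CD11b+ (log2 fold change -5.63 ± 0.34, adjusted p = 1.05e-08). Its 6 libraries fell into 2 narrow bands. Cd209a, a lectin related to DC-SIGN, stood at 0.276, 0.115 and 1.798 CPM against 67.95, 38.7 and 30.5 CPM. Mgl2, a galactose-binding lectin, stood at 0.138, 0.230 and 2.45 CPM against 58.4, 37.7 and 25.2 CPM. For these genes CD103+ replicate 3 was the highest of its group and still below each CD11b+ library. Csf1r, the receptor of the macrophage growth factor M-CSF, was 25.8-fold higher in CD11b+ (log2 fold change -4.70 ± 0.32), with 17.8% of its exon length shared with another gene. Ccr2, the receptor that brings monocytes out of the marrow, lay at 12.97, 5.17 and 11.4 CPM against 156, 116 and 102 CPM. Lyz2, the lysozyme of myeloid cells, lay at 81.2, 48.2 and 107 CPM against 1832, 902 and 1468 CPM. Csf1r and Lyz2 count among the monocyte and macrophage markers as well. The 7 that did not pass included Esam, Dtx1 and Cd5, whose log2 fold changes were 0.40 ± 0.27, -0.41 ± 0.73 and 0.22 ± 0.44, and Tmem176a and Tmem176b, at 0.04 ± 0.24 and -0.74 ± 0.33. S100a4 and Ltb had log2 fold changes of -1.08 ± 0.37 and -0.89 ± 0.38. S100a4 did pass in DESeq2 (adjusted p = 0.0344) and in the fit of the 6 LN libraries alone (adjusted p = 0.00485).

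**Figure D1:**
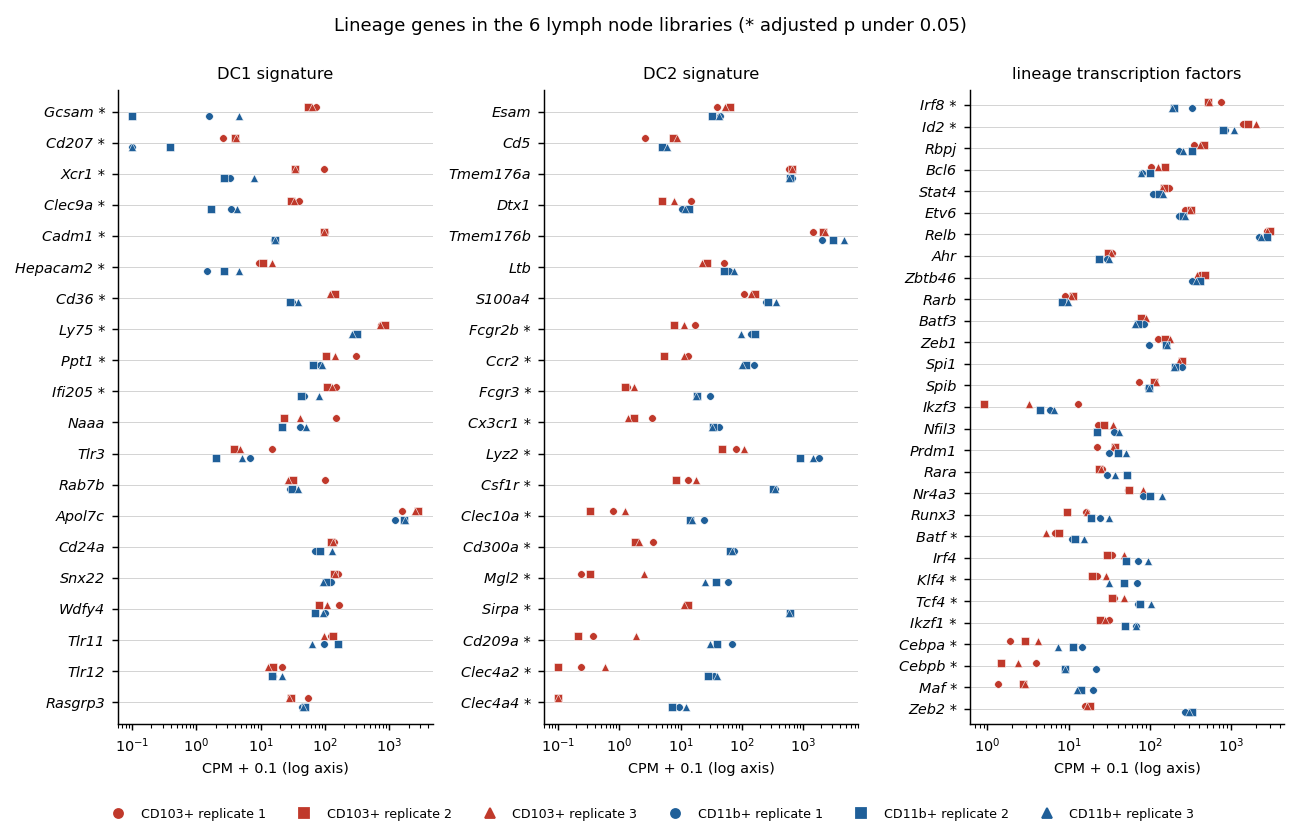
CPM plus 0.1 of tested DC1 signature, DC2 signature and lineage transcription factor genes in each LN library, on log axes. Red symbols are CD103+ and blue symbols CD11b+ libraries, the shape gives the replicate, and an asterisk marks an adjusted p under 0.05. The 2 colours lie far apart for Sirpa and Zeb2, and mix for Batf3, Tlr12 and Tmem176a.

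Of the 30 lineage transcription factors tested, 2 were higher in CD103+ (1 without CD103+ replicate 2 or 3 or CD11b+ replicate 1 or 2) and 9 in CD11b+ cells, with a median log2 fold change of -0.10. Irf8, the factor on which DC1 depend, stood at 756, 525 and 532 CPM against 328, 196 and 188 CPM, 2.55-fold higher in CD103+ (log2 fold change 1.35 ± 0.26, adjusted p = 0.00147). Batf3, its partner in DC1, did not pass, at 78.6, 78.2 and 90.5 CPM against 84.6, 71.4 and 65.9 CPM (log2 fold change 0.15 ± 0.18, adjusted p = 0.656). Irf4, the factor of DC2, was at 34.5, 29.3 and 47.6 CPM against 72.1, 50.6 and 94.4 CPM, with a log2 fold change of -0.96 ± 0.34 and an adjusted p of 0.0717. Id2, an inhibitor of E proteins, lay at 1382, 1629 and 2022 CPM against 846, 799 and 1068 CPM (log2 fold change 0.89 ± 0.25, adjusted p = 0.0225), a call lost without CD103+ replicates 2 or 3 or CD11b+ replicates 1 or 2 (adjusted p up to 0.109). Zeb2, a repressor that favors DC2 and monocyte fates, stood at 15.9, 17.9 and 16.5 CPM against 269, 329 and 306 CPM, 17.97-fold higher in CD11b+ (log2 fold change -4.17 ± 0.37, adjusted p = 3.77e-07). The values for Zeb2 had no overlap by a wide margin. Maf (-2.80, 5.3% of its exon length shared with another gene) and the myeloid factors Cebpa (-1.95) and Cebpb (-2.43) were also higher in CD11b+, Cebpb with 20.7% of its exon length shared with another gene. Tcf4, the E protein that sustains plasmacytoid DCs, was 2.14-fold higher in CD11b+ (adjusted p = 0.00789) and Ikzf1 2.19-fold higher (adjusted p = 0.000535). Klf4 (-1.08) and Batf (-0.95) passed in the same direction, Klf4 with a call lost without CD103+ replicates 1, 2 or 3 or CD11b+ replicates 1 or 2 (adjusted p up to 0.217) or with the replicate number as a block (adjusted p = 0.0653) and Batf with a call lost without CD103+ replicates 1 or 3 or CD11b+ replicate 3 (adjusted p up to 0.0933). The factors shared by the DC family had log2 fold changes of 0.18 ± 0.18 for Zbtb46, 0.14 ± 0.18 for Spi1 and 0.23 ± 0.22 for Relb.

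MHC class II transcripts were higher in CD11b+ cells, although the gate asked for high MHC class II protein on both. Of 14 genes of class II presentation, 9 were higher in CD11b+ and none in CD103+, or 11 and none without CD103+ replicate 1, with a median log2 fold change of -1.63 with all libraries and -2.12 without that one. H2-Ab1, the beta chain of I-A, stood at 3165, 929.6 and 1133 CPM against 8786, 8592 and 4565 CPM, 4.198-fold higher in CD11b+ (log2 fold change -2.07 ± 0.38, adjusted p = 0.000977). Cd74, the invariant chain that guards the class II groove, was among the most abundant transcripts, at 18820, 13260 and 11630 CPM against 42880, 52430 and 24130 CPM (log2 fold change -1.45 ± 0.33). Ciita, the coactivator that switches on class II genes, lay at 118, 15.1 and 22.1 CPM against 364, 275 and 210.4 CPM (log2 fold change -2.45 ± 0.50, adjusted p = 0.00215). The peptide loaders H2-DMa (-2.09), H2-DMb1 (-2.08) and H2-DMb2 (-2.47) were higher in CD11b+ too. CD103+ replicate 1, the library with the highest sum of B cell markers, was the highest CD103+ library for each gene named so far in the list. Without it, H2-Ab1 had a log2 fold change of -2.83, Cd74 -1.68, Ciita -3.94 and H2-DMa -2.87, so each difference was larger than with all libraries. The B cell markers moved the same way, from a median log2 fold change of 0.58 with all libraries to -1.45 without that library, and their part in the class II values was not tested. H2-Oa, which restrains the loaders and has 15.2% of its exon length shared, passed with all libraries (-1.08), a call lost without CD103+ replicates 2 or 3 or CD11b+ replicate 3 (adjusted p up to 0.103). Ctss, the protease that trims the invariant chain, and Ifi30 did not pass (log2 fold changes -0.47 ± 0.21 and 0.26 ± 0.24).

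Class I presentation went the other way by smaller steps. Of 21 tested genes, 7 were higher in CD103+ and 1 in CD11b+, with a median log2 fold change of 0.47. Nlrc5, the coactivator of class I genes, stood at 417, 546 and 489 CPM against 214, 213 and 146 CPM, 2.53-fold higher in CD103+ (log2 fold change 1.34 ± 0.23, adjusted p = 0.000602). Psmb9, a catalytic subunit of the immunoproteasome, was at 446, 384 and 385 CPM against 219, 174 and 148 CPM (log2 fold change 1.17 ± 0.25, adjusted p = 0.00299), with 5.8% of its exon length shared with another gene. H2-T23, the gene of Qa-1, lay at 1470, 1466 and 1593 CPM against 1009, 829.9 and 547 CPM (log2 fold change 0.92 ± 0.23). Tap1, a subunit of the peptide pump, passed at 0.96 ± 0.25, a call lost without CD11b+ replicate 3 (adjusted p up to 0.0517). Tapbp (0.83), which bridges the pump and class I, passed with a call lost without CD103+ replicates 1, 2 or 3 or CD11b+ replicates 1 or 2 (adjusted p up to 0.108). Psme1 (0.81), an activator of the proteasome, passed with a call lost without CD11b+ replicate 1 (adjusted p up to 0.0557). H2-Q7 (0.83), one of a family of similar class I genes whose reads may be misplaced, passed with a call lost without CD103+ replicates 1 or 3 or CD11b+ replicates 2 or 3 (adjusted p up to 0.11). The classical heavy chains H2-K1 and H2-D1 and the light chain B2m did not pass, with log2 fold changes of 0.41 ± 0.23, 0.15 ± 0.24 and 0.62 ± 0.25. Rab27a, which prevents acidification of DC phagosomes, was 3.297-fold higher in CD11b+ (adjusted p = 0.000342).

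**Figure D2:**
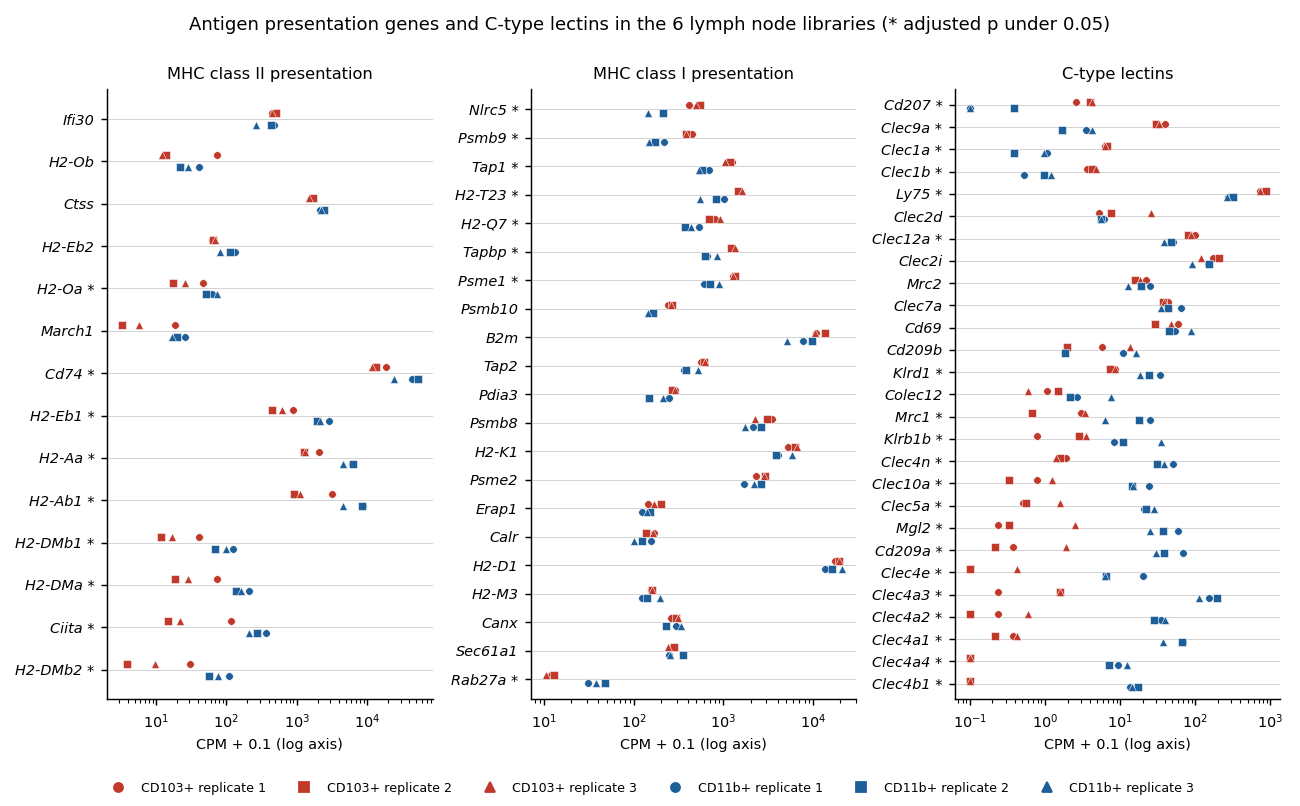
CPM plus 0.1 of the tested genes of MHC class II presentation, MHC class I presentation and the C-type lectins in each LN library, on log axes. Red symbols are CD103+ and blue symbols CD11b+ libraries, the shape gives the replicate, and an asterisk marks an adjusted p under 0.05. CD103+ replicate 1 is the red circle nearest to the blue symbols for Ciita and H2-DMa, and Clec4b1 and Clec4a4 sit at 0.1 in the CD103+ libraries because they had no count there.

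C-type lectins, which bind sugars and damage signals, were divided between the groups. Of 27 tested (37 listed), 6 were higher in CD103+ and 14 in CD11b+ cells. Many lie in separate stretches of chromosome 6. In one (GRCm38, positions 122847138 to 123289870), 9 neighbouring tested genes in a row, C3ar1, Necap1, Clec4a1, Clec4a3, Clec4a4, Clec4b1, Clec4a2, Clec4n and Clec4e, were higher in CD11b+, the least different being Necap1, an adaptor of clathrin coats, with a log2 fold change of -1.30. In the other (positions 129342691 to 129452000), 4 neighbours, Clec12a, Clec1b, Clec9a and Clec1a, were higher in CD103+, with log2 fold changes from 0.96 to 3.49. Clec4a1 stood at 0.276, 0.115 and 0.327 CPM in CD103+ and 68.8, 66.3 and 37.1 CPM in CD11b+ libraries. Clec4a3 stood at 0.138, 1.495 and 1.47 CPM against 152, 199 and 113 CPM. Clec4a4, the target of the DC2 antibody 33D1, had no count in CD103+ libraries and 9.28, 7.098 and 12.2 CPM in CD11b+ libraries, at least 69.96-fold higher. Clec4n, the gene of Dectin-2, which binds fungal mannans, was at 1.79, 1.495 and 1.31 CPM against 50.03, 30.7 and 38.7 CPM (log2 fold change -4.68 ± 0.44). All of these were near 0 in each CD103+ library. Clec5a, which signals through the adaptor DAP12, lay at 0.414, 0.460 and 1.47 CPM against 20.8, 22.2 and 28.1 CPM (log2 fold change -4.96 ± 0.59). Clec12a, a receptor for uric acid crystals, lay at 99.03, 80.2 and 88.9 CPM against 50.2, 48.2 and 38.7 CPM (log2 fold change 0.96 ± 0.20, adjusted p = 0.00232). Clec7a, the gene of Dectin-1, did not pass (log2 fold change -0.28 ± 0.25).

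Start regions of these lectins are shown to give the sequence around their promoters. Windows of 250 bases before to 50 after a start were taken from RefSeq (GRCm38.p6) and matched by symbol to 1382 of the 1840 called genes. They were searched on both strands for an interferon-response letter pattern (ISRE, GAAANNGAA), a joint IRF and PU.1 pattern (EICE, GGAANNGAA) and an AP-1 pattern (TGANTCA). The first and second patterns differ at their second letter and cannot match at the same place on the same strand, and 317 of all 32851 windows held both. The ISRE letters were in 7.89% of the windows of genes higher in CD103+, 11.2% of those higher in CD11b+ and 8.56% of all windows. The EICE letters were in 7.11%, 7.77% and 8.24%, and the AP-1 letters in 4.61%, 7.68% and 7.81%. Among the windows of the genes tested, the shares were 7.44% for ISRE, 7.44% for EICE and 5.11% for AP-1. These shares were not tested against each other. The windows printed here, from 250 bases before to 20 after the start and with matches to the patterns in capitals, belong to Clec9a from the CD103+ stretch (chr6:129408612-129408881, plus strand, an ISRE match at the start), Clec4a1 (chr6:122921598-122921867, plus strand, EICE) and Clec4b1 (chr6:123049712-123049981, plus strand, ISRE) from the CD11b+ stretch, and one start of Zeb2 (chr2:45110258-45110527, minus strand, AP-1 at 2 places), a transcription factor gene higher in CD11b+. The printed windows were chosen by name and each holds a match. ISRE letters thus stood in a chosen window of each stretch, which says nothing of the other windows there. A match is not evidence of a bound site.
Clec9a: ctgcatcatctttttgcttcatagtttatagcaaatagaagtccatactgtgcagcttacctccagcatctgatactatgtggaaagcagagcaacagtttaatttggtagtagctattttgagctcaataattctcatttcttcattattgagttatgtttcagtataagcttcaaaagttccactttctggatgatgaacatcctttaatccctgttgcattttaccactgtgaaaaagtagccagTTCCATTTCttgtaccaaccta
Clec4a1: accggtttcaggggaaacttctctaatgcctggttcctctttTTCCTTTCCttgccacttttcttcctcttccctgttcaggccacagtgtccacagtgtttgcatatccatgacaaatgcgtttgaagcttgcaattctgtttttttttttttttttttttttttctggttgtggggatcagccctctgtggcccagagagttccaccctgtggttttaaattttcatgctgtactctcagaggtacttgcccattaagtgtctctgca
Clec4b1: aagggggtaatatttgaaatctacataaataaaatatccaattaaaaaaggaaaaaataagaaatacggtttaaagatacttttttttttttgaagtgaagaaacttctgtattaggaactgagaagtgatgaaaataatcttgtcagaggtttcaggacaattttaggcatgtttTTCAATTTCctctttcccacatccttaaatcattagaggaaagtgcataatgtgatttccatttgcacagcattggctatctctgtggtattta
Zeb2: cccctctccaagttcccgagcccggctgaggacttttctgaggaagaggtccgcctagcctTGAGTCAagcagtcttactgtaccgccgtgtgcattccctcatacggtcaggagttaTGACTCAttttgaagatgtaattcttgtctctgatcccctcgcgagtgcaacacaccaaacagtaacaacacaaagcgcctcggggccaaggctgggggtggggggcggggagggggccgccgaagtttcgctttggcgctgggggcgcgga

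Paired and Fc receptors, which signal through short motifs that switch cells on or off, were mostly higher in CD11b+ cells. Of 38 tested (43 listed), 25 were higher in CD11b+ and 1 in CD103+, with a median log2 fold change of -2.03. Of the receptors for IgG, Fcgr2b, the inhibitory one, stood at 17.2, 7.82 and 11.1 CPM against 142, 163 and 96.1 CPM (log2 fold change -3.48 ± 0.42). Fcgr3, an activating one, stood at 1.24, 1.15 and 1.63 CPM against 30.6, 18.2 and 17.5 CPM (log2 fold change -4.06 ± 0.37). Fcer1g and Tyrobp, the adaptors that signal for many of these receptors, were 3.75-fold and 2.17-fold higher (adjusted p = 1.21e-05 and 0.00303). On chromosome 11 (positions 114890041 to 115062177) 5 neighbours of the Cd300 family, Cd300a, Cd300lb, Cd300ld, Cd300c2 and Cd300e, were higher in CD11b+. Cd300e had no count in the CD103+ libraries, and the least different, Cd300c2, had a log2 fold change of -4.26. Cd300a, which binds lipids on dying cells and inhibits, stood at 3.45, 1.73 and 1.96 CPM against 73.4, 64.3 and 68.5 CPM. On chromosome 3 (positions 14886426 to 16006332) a row of 6, Car2, Gm9733, Sirpb1a, Sirpb1b, Sirpb1c and Gm5150, was higher in CD11b+. In all, 9 such rows of at least 4 neighbouring tested genes were found, with 49 genes in them. One of them is not 9 separate signals: the Ugt1a genes on chromosome 1 share exons, reads were counted for every gene they overlap, and all 9 genes of that row were higher in CD103+ by log2 fold changes of 0.98 to 1.09. Pirb, an inhibitory receptor for MHC class I, did not pass and was abundant in both groups, at 450.5, 516 and 409 CPM and 481, 445 and 232 CPM.

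Genes of complement and of the uptake of dying cells were found on both sides. Of 33 tested (37 listed), 18 were higher in CD11b+ and 4 in CD103+, with a median log2 fold change of -1.84. The 3 chains of C1q, which starts the classical pathway, were higher in CD11b+, with C1qb at 11.4, 12.3 and 15.03 CPM against 278, 199.8 and 134 CPM (log2 fold change -3.98 ± 0.34, adjusted p = 2.5e-07), C1qa at -4.31 ± 0.55 and C1qc at -3.62 ± 0.34. C1q genes are in the list of macrophage markers as well. C3, the central component, was 9.24-fold higher and Cfp, properdin, 11.1-fold higher in CD11b+. C5ar1, the C5a receptor CD88, had 4 counts in the CD103+ libraries and 26.4, 19.3 and 7.29 CPM in the CD11b+ libraries (log2 fold change -6.51 ± 0.87). Axl, a receptor for phosphatidylserine through a bridging ligand, lay at 36.3, 35.1 and 28.8 CPM against 186, 169 and 136 CPM. On the CD103+ side were Clec9a and Cd36, given above, Timd4, which binds phosphatidylserine directly, at 60.8, 62.7 and 59.8 CPM against 17.7, 20.6 and 15.9 CPM (log2 fold change 1.75 ± 0.30, adjusted p = 0.000554), and Mfge8, a bridging protein, at 0.99 ± 0.27, a call lost without CD103+ replicate 2 or CD11b+ replicates 1 or 3 (adjusted p up to 0.0828).

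Among receptors that position cells, most of those that passed were higher in CD11b+. Of 22 chemokine and positioning receptors tested (30 listed), 11 were higher in CD11b+ and 1, Xcr1, in CD103+ (2 without CD11b+ replicate 3), while 10 did not pass, with a median log2 fold change of -1.44. Cx3cr1, the fractalkine receptor, stood at 3.31, 1.61 and 1.31 CPM against 41.7, 33.9 and 32.9 CPM. Ccr1, a receptor of inflammatory chemokines, had 0.690, 0.115 and 0.490 CPM against 21.9, 9.85 and 5.53 CPM. Gpr183, which guides DCs along oxysterols, was 2.24-fold higher in CD11b+ (adjusted p = 0.00674). Ccr7, the receptor that takes DCs into the node, was abundant in both, at 3731, 3724 and 4456 CPM and 2150, 2268 and 2494 CPM, and did not pass (log2 fold change 0.79 ± 0.28, adjusted p = 0.0728).

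Of 20 chemokines tested (29 listed), 3 were higher in CD103+ and 7 in CD11b+. Ccl5, which draws T cells, was the most different on the CD103+ side, at 7344, 6293 and 7865 CPM against 2239, 1850 and 2228 CPM (log2 fold change 1.77 ± 0.39, adjusted p = 0.00433). Ccl3 stood at 2.21, 0.460 and 2.62 CPM against 21.2, 15.4 and 28.7 CPM, low in both groups. Cxcl10, an interferon-induced ligand of CXCR3, stood at 15.2, 13.9 and 27.1 CPM against 72.4, 63.5 and 77.8 CPM, with 8.8% of its exon length shared. Ccl4 (-1.95), a chemokine related to Ccl3, was higher in CD11b+ with a call lost without CD11b+ replicate 1 (adjusted p up to 0.107). Cxcl2 (-1.65), a neutrophil attractant, was higher in CD11b+ with a call lost without CD103+ replicates 1 or 2 or CD11b+ replicate 3 (adjusted p up to 0.0924). Without CD103+ replicate 2, 1 chemokine was higher in CD103+ and 5 in CD11b+, and 1 was higher in CD103+ without CD103+ replicate 3 or CD11b+ replicate 2 or 3 as well. Ccl17 and Ccl22, the ligands of CCR4 made by mature DCs, did not pass, at 1133, 1211 and 1497 CPM against 601, 556 and 798 CPM for Ccl22 (log2 fold change 0.97 ± 0.42).

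Among cytokines, Il12b was higher in CD103+ and Il1b in CD11b+ cells. Il12b, the p40 subunit shared by IL-12 and IL-23, stood at 490.3, 384 and 519.7 CPM against 82.7, 40.3 and 62.99 CPM, 7.497-fold higher in CD103+ (log2 fold change 2.90 ± 0.42, adjusted p = 0.000156). The partner subunits were below the filter, Il12a at 0.966, 0 and 0.327 CPM and 0, 0.290 and 1.105 CPM and Il23a at 0, 0.345 and 0.163 CPM and 0.320, 0.290 and 0.221 CPM. Il1b stood at 39.3, 37.7 and 55.1 CPM against 193, 104 and 234 CPM, 4.03-fold higher in CD11b+ (log2 fold change -2.01 ± 0.31, adjusted p = 0.000162). Vegfa, an angiogenic factor, lay at 0.966, 0.690 and 0.327 CPM against 19.7, 8.98 and 12.6 CPM. Tgfb1 was 2.93-fold higher in CD11b+ (adjusted p = 0.000132). Of 27 cytokines tested (45 listed), 3 were higher in CD103+ and 8 in CD11b+, or 5 in CD11b+ without CD11b+ replicate 1. Csf1, the M-CSF gene whose receptor was on the CD11b+ side, was 2.08-fold higher in CD103+ (adjusted p = 0.00567). Il15 and Ebi3 did not pass (log2 fold changes 0.58 ± 0.22 and 0.68 ± 0.34). Of 43 cytokine and growth factor receptors, 2 were higher in CD103+ (4.65%, against 5.67% of all genes) and 8 in CD11b+ (18.6%, against 8.26%), among them Il6ra (-2.48), Ifngr1 (-1.46) and Csf3r (-5.08), and without CD11b+ replicate 3 the counts were 1 and 4. With any 1 library but CD103+ replicate 1 left out, none or 1 was higher in CD103+. Flt3, the receptor whose ligand sustains DCs, was at 1178, 1623 and 1226 CPM and 738, 998 and 906 CPM and did not pass.

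Genes of the migratory, mature DC program were present in both groups. Of 20, 6 were higher in CD103+ and none in CD11b+, with a median log2 fold change of 0.55, and 3 were higher in CD103+ without CD103+ replicate 3, while 10 were called in the fit of the 6 LN libraries alone. Fscn1, the actin bundler of mature DCs, stood at 5625, 7550 and 6518 CPM against 3169, 4004 and 2285 CPM (log2 fold change 1.06 ± 0.33, adjusted p = 0.0373), a call lost without CD103+ replicates 2 or 3 or CD11b+ replicates 1 or 3 (adjusted p up to 0.14). Ramp3, a partner of calcitonin-family receptors, was at 44.96, 41.7 and 59.3 CPM against 9.6, 12.2 and 13.9 CPM (log2 fold change 2.04 ± 0.43), with 7.3% of its exon length shared with another gene. Traf1, an adaptor of TNF receptors, was 1.88-fold higher in CD103+ (adjusted p = 0.00445). In the NF-kappaB list, which holds Traf1 as well, 7 of 27 were higher in CD103+ and none in CD11b+, but 3 or 4 with any 1 of the 6 libraries left out. Otud7b, a deubiquitinase that restrains noncanonical NF-kappaB, led it (36.3, 42.4 and 23.04 CPM against 13.4, 7.97 and 9.28 CPM, log2 fold change 1.72 ± 0.35). Nfkbib, an inhibitor of NF-kappaB with 16.3% of its exons shared, was 1.99-fold higher, a call lost without CD103+ replicate 1 or CD11b+ replicate 3 (adjusted p up to 0.079).

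Costimulatory and checkpoint genes were called in both directions. Of 21 tested (24 listed), 3 were higher in CD103+ and 4 in CD11b+, or 1 and 3 without CD11b+ replicate 1. Pdcd1lg2, the gene of PD-L2, stood at 51.5, 77.6 and 68.3 CPM against 24.5, 27.4 and 19.4 CPM (log2 fold change 1.46 ± 0.29, adjusted p = 0.00183). Cd274, the gene of PD-L1, did not pass (0.10 ± 0.20), nor did Cd86 (0.21 ± 0.24) or Cd40 (0.30 ± 0.23). Cd70, which costimulates through CD27, lay at 15.9, 13.7 and 13.1 CPM against 2.77, 4.35 and 4.199 CPM (log2 fold change 1.92 ± 0.52), a call lost without CD103+ replicates 1 or 2 or CD11b+ replicates 1 or 2 (adjusted p up to 0.0887). Nectin2 was at 1.66, 0.460 and 0.654 CPM against 14.8, 9.56 and 9.28 CPM (log2 fold change -3.60 ± 0.73), and Pvr, its relative and a ligand of the same T cell receptors, was higher in CD103+, with a log2 fold change of 0.90 ± 0.24 and a call lost without CD103+ replicate 3 or CD11b+ replicate 1 (adjusted p up to 0.105).

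Innate sensors that passed with all libraries were higher in CD11b+. Of 27 Toll-like receptor genes and adaptors, 8 were higher in CD11b+ (29.6%, against 8.26% of all genes) and none in CD103+. With 5.67% of all genes higher in CD103+, few such calls would fall in a list of 27, so their absence is near the share of all genes. Tlr7, which senses single-stranded RNA, stood at 0.966, 0.575 and 1.31 CPM against 11.4, 12.02 and 15.7 CPM (log2 fold change -3.79 ± 0.40, adjusted p = 2.67e-06). Tlr8, its relative, had no count in CD103+ libraries and 3.09, 4.49 and 2.87 CPM in CD11b+ libraries, at least 25.6-fold higher. Cd14, the lipopolysaccharide coreceptor, lay at 14.2, 12.7 and 13.1 CPM against 104, 70.1 and 78.5 CPM and is one of the monocyte and macrophage markers. Tlr1, a sensor of lipopeptides, was 2.83-fold higher. Of 27 tested inflammasome and cytosolic sensor genes, 7 were higher in CD11b+ (25.9%) and none in CD103+, or 1 in CD103+ without CD11b+ replicate 1. Mefv, the gene of pyrin, had a log2 fold change of -3.41 ± 0.36. Nod1, a sensor of bacterial peptidoglycan, stood at 7.72, 4.37 and 4.903 CPM against 56.5, 44.8 and 49.5 CPM (log2 fold change -3.15 ± 0.26). Ddx58, the gene of RIG-I, was 3.00-fold higher in CD11b+ (adjusted p = 0.000438).

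Interferon-stimulated genes were called in both directions. Of 45, 3 were higher in CD103+ (6.67%, near the 5.67% of all genes) and 10 in CD11b+ (22.2%, against 8.26%), with a median log2 fold change of -0.15. Oasl1, which restrains IRF7 translation, lay at 156, 139.8 and 106 CPM against 53.02, 25.8 and 13.7 CPM, 4.34-fold higher in CD103+ (adjusted p = 0.00322). Gbp4, a guanylate-binding protein, was 2.73-fold higher and Irf1 2.004-fold higher in CD103+. Ifitm3, which blocks virus entry, stood at 15.4, 11.6 and 12.3 CPM against 135, 78.7 and 75.2 CPM, higher in CD11b+. Irf7, the factor that amplifies type I interferon, stood at 239, 224 and 161 CPM against 488, 729 and 415 CPM, also higher in CD11b+. Isg15, Mx1 and Ifit1 did not pass, with log2 fold changes of 0.31 ± 0.31, 0.16 ± 0.24 and 0.50 ± 0.33.

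Lysosomal proteases and oxidase genes were mostly called toward CD11b+. Of 22 tested genes of cathepsins and their inhibitors, 7 were higher in CD11b+ and 1 in CD103+, and 4 were higher in CD11b+ without CD103+ replicate 2 or CD11b+ replicate 1. Ctsa, a carboxypeptidase of lysosomes, was at 50.9, 25.5 and 29.1 CPM against 408, 338 and 235 CPM (log2 fold change -3.22 ± 0.27), with 17.4% of its exon length shared with another gene. Ctsd, an aspartic protease, was 3.86-fold higher, with 6.5% of its exon length shared, and Ctsc 4.13-fold higher. Cst3, the secreted cathepsin inhibitor cystatin C, was higher in CD103+ and among the most abundant transcripts there, at 13330, 12860 and 11700 CPM against 4513, 5918 and 5478 CPM (log2 fold change 1.25 ± 0.20, adjusted p = 0.000315). Of 22 tested oxidase and antioxidant genes, 6 were higher in CD11b+ and 1 in CD103+. Cybb, the catalytic subunit of the phagocyte oxidase, stood at 31.2, 9.08 and 14.2 CPM against 233, 191 and 210.0 CPM (log2 fold change -3.54 ± 0.39). Its partner Cyba did not pass (-0.42 ± 0.24). Slc7a11, which imports cystine, was 5.36-fold higher in CD11b+, while Gclc, the enzyme that joins cysteine to glutamate for glutathione, was 2.81-fold higher in CD103+ (adjusted p = 0.000356).

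Lipid genes were called on both sides. Of 24 genes of cholesterol efflux and lipid droplets, 9 were higher in CD11b+ and 1, Cd36, in CD103+. Lpl, the lipoprotein lipase, stood at 4.14, 1.38 and 1.798 CPM against 108, 43.8 and 22.3 CPM. Nr1h3, the sterol receptor LXR-alpha, stood at 11.4, 2.88 and 7.68 CPM against 86.9, 56.8 and 52.4 CPM. Apoe, which carries cholesterol out of cells and is one of the macrophage markers, stood at 211, 77.7 and 108 CPM against 745, 628 and 333 CPM. None of these had overlapping groups, and CD11b+ replicate 1 was the highest library for each. Of 24 tested cholesterol synthesis and uptake genes, 4 were higher in CD103+ and none in CD11b+, with a median log2 fold change of 0.50, but between 0 and 2 of them passed with any 1 library left out. Sqle, the epoxidase, had a log2 fold change of 1.28 ± 0.41, a call lost whichever of the 6 libraries was left out (adjusted p up to 0.145).

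Eicosanoid and purine signalling genes that passed were all higher in CD11b+. Of 21 eicosanoid and histamine genes tested (27 listed), 12 were higher in CD11b+, with a median log2 fold change of -1.71. Ptgs2, the inducible cyclooxygenase, stood at 8.55, 14.4 and 29.1 CPM against 87.04, 54.3 and 263 CPM, 7.77-fold higher (log2 fold change -2.96 ± 0.59, adjusted p = 0.00177). Tbxas1, the thromboxane synthase, was at 4.41, 2.65 and 1.96 CPM against 21.01, 12.2 and 15.5 CPM. Alox5ap, needed for leukotriene synthesis, was 3.99-fold higher. Ptger4, a prostaglandin E2 receptor, did not pass (0.33 ± 0.24). Of 16 tested purinergic genes (20 listed), 9 were higher in CD11b+. P2rx7, the ATP-gated channel, lay at 2.48, 1.15 and 4.903 CPM against 20.9, 21.01 and 19.9 CPM. The ADP receptor P2ry13 lay at 1.103, 3.33 and 5.23 CPM against 26.2, 26.1 and 32.3 CPM. P2ry13 stands in a row of 4 called genes on chromosome 3 (positions 59207896 to 60629748) with P2ry12, Sucnr1 and Mbnl1. Sucnr1, the succinate receptor, had no count in CD103+ libraries and 8.32, 6.08 and 4.64 CPM in CD11b+ libraries, at least 46.7-fold higher.

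Adhesion genes were called in both directions. Of 21 tested integrins (28 listed), 3 were higher in CD103+ and 8 in CD11b+, or 5 in CD11b+ without CD103+ replicate 2. Itgb8, whose product frees active TGF-beta, stood at 297, 333 and 395 CPM against 56.5, 48.5 and 71.2 CPM, 5.82-fold higher in CD103+ (log2 fold change 2.54 ± 0.29, adjusted p = 1.29e-05). Itga3, a chain of a laminin receptor, was 6.61-fold higher in CD103+. Itgb2, the common chain of the leukocyte integrins, was 2.82-fold higher in CD11b+. Itga9, a receptor of tenascin, stood at 0.828, 0.345 and 0 CPM against 23.7, 14.5 and 10.2 CPM. Itgb7, the partner of CD103, did not pass (0.53 ± 0.23). Of 31 tested adhesion and guidance genes (51 listed), 6 were higher in CD103+ and 9 in CD11b+. Cldn1, a tight-junction claudin, stood at 58.2, 64.4 and 75.01 CPM against 8.85, 15.1 and 20.6 CPM. Sema6d, a semaphorin, stood at 450.1, 498 and 471 CPM against 149, 192 and 233 CPM. On the CD11b+ side were another semaphorin and a semaphorin receptor. Sema4d stood at 20.7, 11.96 and 20.4 CPM against 117, 106 and 106 CPM and Plxnb2, a plexin, was 6.64-fold higher (adjusted p = 9.98e-06).

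In the Notch list, 4 of 23 tested were higher in each group, and the total of 8 was 3 to 5 without CD103+ replicate 2 or 3 or CD11b+ replicate 1 or 2, while 2 were higher in CD11b+ without CD11b+ replicate 3. Jag1, a Notch ligand, was at 364, 575 and 455 CPM against 123, 127 and 126 CPM, 3.72-fold higher in CD103+ (log2 fold change 1.89 ± 0.34, adjusted p = 0.000705). Dll4, another ligand, was 3.37-fold higher in CD11b+, a call lost whichever of the 6 libraries was left out (adjusted p up to 0.138), and 5.6% of its exon length is shared with another gene. In the list of retinoic acid, TGF-beta and tryptophan genes, 2 of 19 tested were higher in CD103+, Itgb8 among them, and 3 in CD11b+, with 1 higher in CD103+ without CD103+ replicate 1 or 2 or CD11b+ replicate 2. Aldh1a2, the retinal dehydrogenase of DCs, did not pass, at 111, 139.9 and 149 CPM against 122, 139.5 and 200.0 CPM. Of 21 tested type 2 response genes, 2 were higher in CD103+ (Jag1 and Pdcd1lg2) and 6 in CD11b+, including Retnla and Chil3, which alternatively activated macrophages also make. Retnla stood at 0.552, 0 and 0.981 CPM against 14.7, 9.71 and 30.7 CPM, and Chil3 was 20.4-fold higher in CD11b+ (adjusted p = 1.17e-05). Of 22 tested matrix protease genes and inhibitors, 4 were higher in each group, or 2 in CD103+ and 3 in CD11b+ without CD103+ replicate 3 or CD11b+ replicate 2, and 2 or 1 in CD103+ without CD103+ replicate 2 or CD11b+ replicate 1. Mmp12, the macrophage elastase, stood at 4.28, 0 and 0 CPM against 54.2, 28.2 and 25.2 CPM (log2 fold change -4.66 ± 0.73), and without CD103+ replicate 1, the only CD103+ library with a count, the fitted log2 fold change was -11.05, a value set by the prior count since that group then had no count. Mmp19, with 23.1% of its exon length shared, was 4.47-fold higher in CD103+.

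Of 39 tested actin and motility genes, 3 were higher in CD103+ (7.69%, near the 5.67% of all genes, 1 without CD103+ replicate 2 or CD11b+ replicate 3 and 5 in DESeq2) and 6 in CD11b+. Myo1f, a myosin of leukocytes, stood at 72.8, 28.98 and 36.9 CPM against 326, 279.7 and 238 CPM, and its relative Myo1e was 11.3-fold higher in CD11b+. The small GTPases Rhoc and Rhob were called in opposite directions, with Rhoc 4.12-fold higher in CD103+ and Rhob 3.905-fold higher in CD11b+. Of 14 tested BCL2 family genes (19 listed), 3 were higher in CD103+ and 1 in CD11b+. Bcl2l14 was at 329.8, 254 and 284 CPM against 56.9, 50.6 and 42.4 CPM (log2 fold change 2.53 ± 0.23), and Bcl2l11, the gene of the death-promoting BIM, was 2.09-fold higher in CD103+ (adjusted p = 0.00363). Bcl2 itself was higher in CD11b+ (-1.62), with a log2 fold change of -0.90 without CD11b+ replicate 3 and 7.8% of its exon length shared.

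Lists of stress, signalling and growth genes were counted in the same way. Of 25 tested immediate early genes, 5 were higher in CD11b+. Fosl2, an AP-1 subunit, stood at 4.96, 0.690 and 7.68 CPM against 43.2, 31.7 and 59.01 CPM and Egr1 was 3.81-fold higher (adjusted p = 0.000602), while Fos and Jun, the founding subunits of AP-1, did not pass (-0.86 ± 0.33 and -0.51 ± 0.42), although Fos did with the replicate number as a block (adjusted p = 0.0431). Of 19 SOCS and STAT genes, 2 were higher in CD103+ and 1 in CD11b+, or none and 1 without CD103+ replicate 2 and 1 in each without CD103+ replicate 3 or CD11b+ replicate 1 or 3. Socs3, the brake on IL-6 signalling, was 6.53-fold higher in CD11b+ (log2 fold change -2.71 ± 0.36, adjusted p = 3.59e-05). Of 26 tested glycolysis genes, 3 were higher in each group (11.5%), with 1 higher in CD103+ without CD103+ replicate 2 or 3, 6 higher in CD103+ in DESeq2 and 9 called in all with the replicate number as a block. Of 38 cell cycle genes, 5 were higher in CD11b+ and none in CD103+, and 11 without CD103+ replicate 1, which was the highest library of its group for 27 of them, but 1 without CD103+ replicate 2 or CD11b+ replicate 1, 3 without CD103+ replicate 3 and 1 in the fit of the 6 LN libraries alone. Mki67, a marker of dividing cells, did not pass, at 37.5, 29.3 and 23.5 CPM against 32.9, 26.7 and 32.5 CPM. Of 17 tested unfolded protein response genes, 1 was higher in CD103+ and 2 in CD11b+, counts that moved with each library left out, down to none and 1 without CD103+ replicate 2 or CD11b+ replicate 3. The cell cycle, SOCS and STAT, unfolded protein and cholesterol synthesis lists held between 13.2% and 17.6% called, near the 13.9% of all genes. Toward CD103+ the share called was also near or below the 5.67% of all genes in the lists of positioning receptors, cathepsins and oxidase genes (4.55% each), lipid efflux genes (4.17%), unfolded protein response genes (5.88%) and lineage transcription factors (6.67%). Toward CD11b+ it was below 8.26% for the BCL2 family (7.14%), SOCS and STAT genes (5.26%) and class I presentation (4.76%). DESeq2 called over 1.5 times as many costimulatory genes (5) and positioning, paired and lipid efflux genes (2 each) higher in CD103+ and matrix protease genes (7) higher in CD11b+. Where a list held no call toward a group, DESeq2 called none there either except 1 purinergic gene higher in CD103+ and 1 NK cell marker higher in CD11b+, and at most 2 members per list had an unadjusted p under 0.05.

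**Figure D3:**
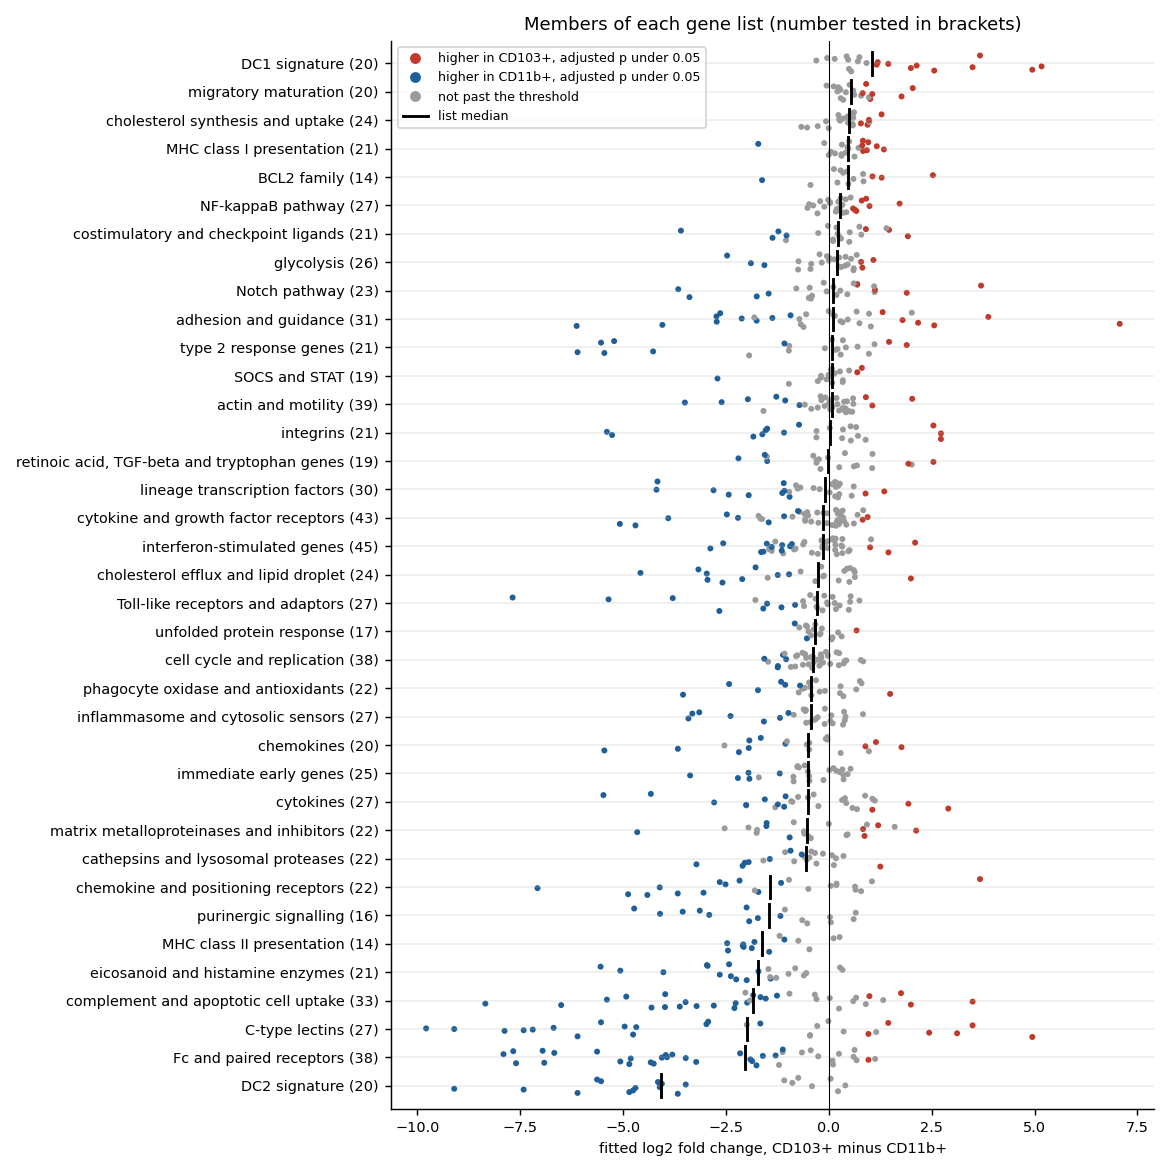
Fitted log2 fold changes, CD103+ minus CD11b+, of the tested members of 37 gene lists, sorted by the list median (black bar). Red and blue points passed an adjusted p of 0.05 toward CD103+ and CD11b+, and grey points did not. The DC1 signature has the highest median, 1.04, and the DC2 signature the lowest, -4.08, with the paired receptors, C-type lectins and complement genes next above it.

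The same lineage contrast can be set beside that of the spleen, where CD8+ DCs are DC1 and CD4+ DCs are DC2, resident cells that did not come through lymph. The 4 groups share no library. In the spleen 3831 (29.0%) of the 13208 genes passed. Of the 1840 genes called in the LN, 860 were called in the same direction in the spleen, which is 46.7% of the LN calls and 22.4% of the splenic calls, and 101 were called in the opposite direction. A test of the difference between the organs, the lineage by organ interaction, called 1611 genes (12.2%), among them 546 of the LN calls and all 101 opposite ones. The interaction is the LN difference minus the splenic one, so genes called in opposite directions pass it nearly by construction. Across the 13208 genes, which are not independent replicates, the 2 log2 fold changes had a Pearson r of 0.406 and a Spearman rho of 0.323.

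Several DC1 genes differed less in the LN than in the spleen. Irf8 had a log2 fold change of 1.35 in the LN and 5.58 in the spleen (interaction -4.23 ± 0.38, adjusted p = 1.08e-06). Its level was 237 ± 78.96 CPM (SD, n = 3) in LN CD11b+ and 52.2 ± 14.6 CPM in splenic CD4+ DCs, beside 604 ± 132 CPM in LN CD103+ and 2497 ± 581 CPM in splenic CD8+ DCs. Batf3 had a log2 fold change of 0.15 in the LN and 1.10 in the spleen (adjusted p = 0.0197, lost without CD103+ replicate 2 or CD11b+ replicate 1, adjusted p up to 0.0613), and Xcr1 of 3.67 and 7.59 (adjusted p = 0.0014). Rab7b, Ifi205 and Tlr12 had log2 fold changes of 8.00, 5.80 and 4.61 in the spleen and 0.71, 1.16 and -0.04 in the LN (adjusted p = 4.04e-07, 1.06e-07 and 7.42e-05). Cd8a, a gene of the marker that defined DC1 in the splenic sort, was not used for the LN sort. It had a log2 fold change of 7.72 in the spleen and 0.54 in the LN (interaction adjusted p = 1.04e-07). The splenic gate set that difference, so the p value is not an independent result.

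Some DC2 genes went the other way, with the larger difference in the LN. Cd209a differed by -6.11 in the LN and -1.41 in the spleen (interaction -4.70 ± 0.70, adjusted p = 0.000211), Cx3cr1 by -4.11 and -0.27 (adjusted p = 2.43e-05) and Clec10a by -4.76 and -0.22 (adjusted p = 0.000889). Ccr2 was higher in LN CD11b+ cells and higher in splenic CD8+ DCs, with log2 fold changes of -3.67 and 1.77 (adjusted p = 1.04e-07). H2-Ab1 differed by -2.07 in the LN and 0.27 in the spleen (adjusted p = 0.00635). Esam and Dtx1, genes of Notch-dependent splenic DC2, differed by -3.61 and -4.86 in the spleen and by 0.40 and -0.41 in the LN (adjusted p = 3.84e-06 and 0.00704). Spleens and LNs came from different cohorts of mice and were digested apart. The sort gates differed as well. Per the paper, splenic DC2 were sorted as CD11b+CD4+ and LN DC2 as CD11b+ cells, and splenic DC1 on CD8 and LN DC1 on CD103. Organ, cohort and gate therefore cannot be told apart.

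**Figure D4:**
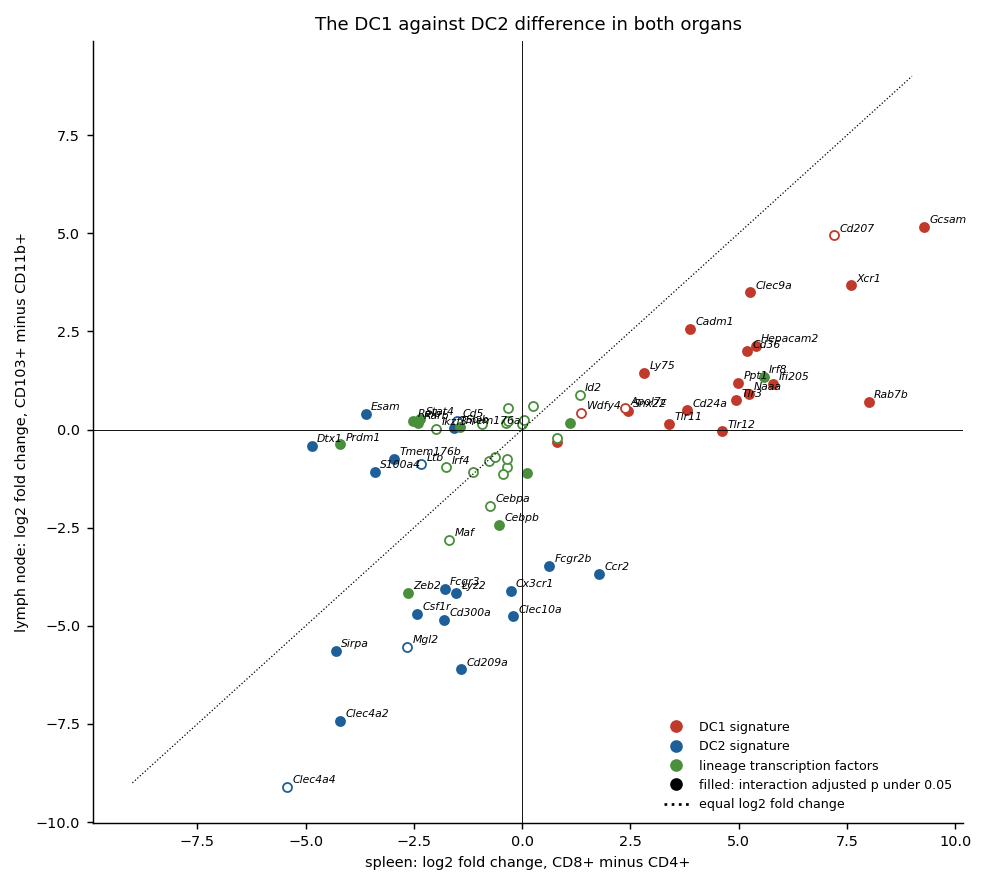
Log2 fold change of DC1 minus DC2 in the spleen (horizontal, CD8+ minus CD4+) and in the LN (vertical, CD103+ minus CD11b+) for genes of the DC1 signature, DC2 signature and lineage transcription factor lists. Filled points passed the interaction test at an adjusted p of 0.05, and the dotted line marks equal values. Rab7b, Ifi205 and Tlr12 lie below the line on the right, and Ccr2 lies on opposite sides of 0 in the 2 organs.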

How the data were processed

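Gene expression was measured by poly-A RNA-seq (SMARTer amplification, Ion Torrent) of sorted DC pools. The authors deposited gene counts for 15 libraries and TPM values of the same genes; their processing notes name STAR 2.4.0j, Subread 1.5.2 (featureCounts) and mm10, and per the methods reads were counted on Ensembl exons without regard to strand, for each gene they overlap. The deposited exon length column was used for shared exon shares. Reads of overlapping, antisense or near-identical genes therefore cannot be told apart.

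Counts were tested with edgeR 4.0.16 (R 4.3.3, limma 3.58.1), quasi-likelihood, with 5 subtypes and 15 libraries in the fit (10 residual degrees of freedom, common dispersion 0.0644, TMM factors 0.898 to 1.09), on genes above 1 CPM in at least 3 LN libraries, with p values adjusted by Benjamini and Hochberg's method (threshold 0.05). Symbols for 37607 identifiers (96.6%) came from GENCODE vM21 on GRCm38. Standard errors are the absolute log2 fold change divided by the square root of the quasi-likelihood F statistic. Fold floors took 3 counts over a group, and 95% Poisson intervals cover counting error only. List medians stayed the same with genes at 0 counts set to their bound. The script was tested on simulated data.

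Members and gene lists were chosen with earlier results of these data known. Genes named were all of the sort, signature and transcription factor lists, the 10 largest changes each way among other genes with a mean of 10 CPM or more and no overlap (without genes of the B cell, T cell and erythroid marker lists, antigen receptor segments and genes without a symbol), and up to 3 per direction of every other list; others from the lists or their neighbours were chosen after their values were seen. A few genes of these lists are counted with them but not reported here by name. Same-numbered LN replicates deviated together (r = 0.268, 0.211 and 0.289, against -0.197 to -0.0479 for other pairs), so the number was also fitted as a block. Alternatives were RLE size factors, DESeq2 1.42.0, no filter or filterByExpr, a fold minimum, the 6 LN libraries alone, limma on log2(TPM + 1), the block, and each LN library left out. The monocyte libraries entered the fit but no comparison.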

Additional observations from a re-analysis of the deposited data

Results flagged for a closer look

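The sort, signature and lineage transcription factor genes given here had a lineage difference that was not the same in the LN and in the spleen, by edgeR's test of the lineage by organ interaction at an adjusted p of 0.05. Values below are the LN log2 fold change (CD103+ minus CD11b+) minus the splenic one (CD8+ minus CD4+), so that a negative value of a DC1 gene means a smaller DC1 excess in the LN and a negative value of a DC2 gene a larger DC2 excess there. Organ, cohort and sort gate cannot be told apart in these libraries, and the parts of cohort and gate were not tested.

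In the DC1 genes and Itgae, the gene of CD103, the interaction was negative without exception among those that passed, at -5.22 for Itgae, -3.92 for Xcr1, -1.76 for Clec9a, -1.32 for Cadm1, -4.19 for Tlr3, -4.31 for Naaa, -4.11 for Gcsam, -1.97 for Snx22, -4.64 for Ifi205, -7.30 for Rab7b, -3.79 for Ppt1, -3.19 for Cd36, -3.32 for Cd24a, -1.37 for Ly75, -3.25 for Tlr11, -4.65 for Tlr12, -3.26 for Hepacam2 and -1.10 for Rasgrp3. For Itgae the log2 fold changes themselves were 2.73 in the LN and 7.95 in the spleen, and for Rasgrp3 -0.30 and 0.80. Snx22 has 20.4% of its exon length shared with another gene. In the DC2 genes the interaction took both signs. It was -1.33 for Sirpa, -4.70 for Cd209a, -4.54 for Clec10a, -3.21 for Clec4a2, -2.28 for Csf1r, -3.84 for Cx3cr1, -5.44 for Ccr2, -4.11 for Fcgr2b, -2.27 for Fcgr3, -2.64 for Lyz2 and -3.04 for Cd300a, with the larger CD11b+ excess in the LN, and for Fcgr2b, the inhibitory IgG receptor, the lineage difference was -3.48 in the LN and 0.63 in the spleen. It was 2.33 for S100a4, 1.62 for Tmem176a, 2.23 for Tmem176b, 4.45 for Dtx1 and 4.01 for Esam. The DC2 excess of these genes passed in the spleen and not in the LN in the main fit. In the LN S100a4 had a log2 fold change of -1.08 (adjusted p = 0.0616) with no overlap. It passed there in DESeq2 and in the fit of the 6 LN libraries alone.

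Among the transcription factors the interaction was -4.23 for Irf8, -0.95 for Batf3, -1.52 for Zeb2, -1.20 for Tcf4 and -1.89 for Cebpb, and in the other direction 2.76 for Relb, 3.83 for Prdm1, 2.57 for Rarb, 1.51 for Spib and 2.62 for Stat4. Prdm1, the gene of BLIMP-1, had a log2 fold change of -0.37 in the LN and -4.20 in the spleen, and Relb, the noncanonical NF-kappaB subunit, 0.23 and -2.53. Among the remaining genes of the sort the interaction was -0.87 for Itgax, -2.34 for H2-Ab1, -7.18 for Cd8a, -3.66 for Ly6c1 and -6.27 for Ly6c2. CD8 defined DC1 in the splenic sort and not in the LN sort, so the Cd8a interaction follows from the gates. Ly6c2, a marker of monocytes, was higher in CD11b+ cells in the LN (-2.03) and higher in CD8+ DCs in the spleen (4.24), while its close copy Ly6c1, with which it may share reads, was higher in CD8+ DCs in the spleen (2.42) and did not pass in the LN (-1.25, adjusted p = 0.0791). Without CD103+ replicate 1, the library with the highest sum of B cell markers, the interactions of the DC1 genes given here stayed negative and called, from -8.15 for Rab7b to -1.34 for Cadm1 and Ly75. With 1 LN library left out, the interaction calls of Sirpa and Zeb2 were lost whichever of the 6 it was (adjusted p 0.0532 to 0.087). That of Itgax was lost without CD103+ replicates 2 or 3 or CD11b+ replicates 1 or 2 (up to 0.0968), as was that of Rasgrp3 (up to 0.108), that of Gcsam without CD11b+ replicate 3 (0.0544), that of Batf3 without CD103+ replicate 2 or CD11b+ replicate 1 (up to 0.0613), that of Tcf4 without CD103+ replicates 1 or 2 or CD11b+ replicate 3 (up to 0.105), and that of Cebpb without CD103+ replicates 2 or 3 or CD11b+ replicate 1 (up to 0.146).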

How the results depend on the processing

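The LN count of 1840 genes was 1823 with RLE size factors, 2202 in DESeq2, 2299 of 23169 genes without a filter, 1830 with filterByExpr, 2006 on the 6 LN libraries alone, 2044 with limma on log2(TPM + 1) and 1346 for a log2 fold change of at least 1. Leaving out 1 LN library gave 1256 to 1563 LN genes, 1117 to 1553 interaction genes and 3676 to 3930 splenic genes. A log2 fold change of at least 1 took the splenic count from 3831 to 2462, a stricter criterion by construction. With the replicate number as a block, the LN count was 1938, with 1758 of the 1840 called, the interaction count 1704 and the splenic count 3936. The block changed 2 calls among 223 genes named by rule, Klf4 (lost) and Runx3 (gained), and beyond the rule that of Fos. Of 184 named genes called, 0 to 4 were lost under RLE, DESeq2, the block, either filter setting or the 6 libraries alone, 13 with limma, 22 with the fold minimum and 13 to 26 with 1 library left out. Calls gained among the named genes were 8 without a filter, 2 in DESeq2, 2 on the 6 LN libraries alone and 0 to 2 under the other settings. No named gene changed direction while called. The median log2 fold change of all genes lay between -0.06 and 0.02 under the alternatives. Low genes such as Il12a and Il23a, which rest on few counts at this depth, were below the filter. Without a filter their log2 fold changes were 0.03 (unadjusted p = 0.98) and -0.63 (unadjusted p = 0.7).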

Other observations

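Several abundant transcripts outside the lists separated the groups. These genes were chosen after their values were seen. On the CD103+ side Laptm4b, a lysosomal membrane protein, stood at 1057, 1256 and 899.8 CPM against 103, 109.8 and 65.9 CPM, 11.5-fold higher (log2 fold change 3.52 ± 0.23, adjusted p = 1.3e-08). Serpinb1a, an inhibitor of neutrophil proteases, was 8.15-fold higher (adjusted p = 2.75e-07) and Scin, which severs actin filaments, 6.52-fold higher (adjusted p = 2.16e-06). Mab21l3 stood at 137, 193 and 179 CPM against 14.1, 11.3 and 6.85 CPM and Epsti1, an interferon-inducible gene, was 3.14-fold higher. Cd81, a tetraspanin, was 3.23-fold higher and Gpc1, a heparan sulfate proteoglycan, 3.25-fold higher.

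On the CD11b+ side Tgfbi, a matrix protein that binds integrins, stood at 20.1, 7.704 and 14.4 CPM against 307, 189 and 177 CPM, 15.9-fold higher (adjusted p = 1.59e-07). Fn1, fibronectin, stood at 7.45, 3.22 and 4.74 CPM against 133, 93.9 and 117 CPM. Msr1, a scavenger receptor, was 29.4-fold higher (adjusted p = 1.97e-07) and Adgre4, an adhesion receptor of the F4/80 family, 17.9-fold higher (adjusted p = 2.13e-07). The kinases Fgr, Prkcb and Syk, which act below immune receptors, were 8.76-fold, 4.89-fold and 2.6-fold higher. Dscam, an adhesion molecule known from neurons, stood at 2.896, 5.17 and 4.58 CPM against 78.9, 137 and 122 CPM, with no overlap. Of 6 tested Ms4a genes, 5 were higher in CD11b+, and of 10 tested tubulin genes, 4 were higher in CD103+ and none in CD11b+. Of 81 ribosomal protein genes, 1 was higher in CD103+ and 7 in CD11b+, near or below the shares of all genes (5.67% and 8.26%), with a median log2 fold change of -0.23. The B cell, monocyte and macrophage values given above apply to these genes as well.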
